A study of Homo sapiens with 4 samples.

Results

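The genes described here are the G1 cyclins, their kinases and the retinoblastoma (RB) family: CCND1, CCND2, CCND3, CDK2, CDK4, CDK6, CDKN1B, RB1, RBL1 and RBL2. They were chosen by gene symbol, and 9 of the 10 symbols have a row among the 28391 genes of the deposited table. CCND2 was not analysed here. The study sequenced mRNA of HCT116, a widely used cell line grown from a human colorectal carcinoma, in cells with a short hairpin RNA against ALKBH5 (shALKBH5, genotype given as ALKBH5 knockdown, 2 libraries) or with a control hairpin (shNC, genotype given as WT, 2 libraries). ALKBH5 is a demethylase that acts on N6-methyladenosine (m6A), a common mark of mRNA. All cultures were kept in the same serum-containing medium, and the labels name no time point, rescue or further hairpin group, so loss of ALKBH5 and any other action of the hairpin cannot be told apart. Whether the pair of libraries in a group stems from different cultures is not stated, so the p-values rest on the spread among these 4 libraries alone, which may be technical.

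Reads assigned to genes numbered from 16398604 to 17493141 per library. ALKBH5 was at 312 and 270.2 normalised read counts in the shALKBH5 libraries, against 1905 and 1941 in the shNC libraries. The groups were far apart, and ALKBH5 fell by 2.72 on the log2 scale (SE 0.0812, n = 2 each, limma-trend adjusted p 0.00131). All 7 epithelial markers looked at had a mean of at least 50. They summed to 103665 to 105841 in shALKBH5 and 112165 to 114869 in shNC. EPCAM, at 5064 and 4988 in shALKBH5 and 4357 and 4490 in shNC, was the only one of them with a log2 fold change above 0. The keratins KRT8 and KRT18 fell in shALKBH5 cells, by 0.15 and 0.30 on the log2 scale. Of 6 leukocyte markers 4 had a row, with sums from 21.0 to 23.3 in shALKBH5 and from 26.6 to 32.7 in shNC. Squamous markers summed to 17.2 to 19.0 in shALKBH5 and 8.17 to 19.0 in shNC. Endothelium markers summed to 28.4 to 43.0 in shALKBH5 and 37.1 to 56.2 in shNC. The fibroblast and hepatocyte lists were read more. Fibroblast markers summed to 858 to 882 in shALKBH5 and 913 to 925 in shNC, mostly from COL1A1. Hepatocyte markers summed to 53.0 to 53.7 in shALKBH5 and 94.2 to 109 in shNC, mostly from SERPINA1.

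Cells pass from G1 into S phase when D-type cyclins, bound to CDK4 or CDK6, and then E-type cyclins, bound to CDK2, phosphorylate the pocket proteins RB1, RBL1 (p107) and RBL2 (p130). Unphosphorylated pocket proteins hold E2F transcription factors and keep the genes of DNA replication low. CDKN1B (p27) binds cyclin and kinase together, inhibiting CDK2, and is removed by the SKP2 ubiquitin ligase as cells enter S phase. In colorectal epithelium CCND1 is a well-known target of growth factor and Wnt signalling.

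Of the 9 genes measured, 3 rose in shALKBH5 cells, 0 fell and 6 did not pass the test. The 3 that rose were CCND1, which encodes cyclin D1, CDK6, a kinase partner of the D cyclins, and RB1, the retinoblastoma protein itself. CCND1 was higher by 18.3% (95% interval 10.3 to 26.8%), CDK6 by 19.7% (10.9 to 29.1%) and RB1 by 23.0% (12.7 to 34.3%). Of all 25887 genes tested with limma-trend at an adjusted p under 0.05, 3.86% were called, 1.98% higher and 1.88% lower. Among the 8664 genes whose mean reached 300, as it did for all 9 members, 10.2% were called, 5.26% higher and 4.97% lower. Without adjustment, 4 members were higher and 3 lower at p under 0.05, where 10.7% of all genes tested were higher and 10.7% lower, and 21.5% and 19.0% of the 8664 genes of high mean. On recovered reads, edgeR called 4 members higher and 3 lower, beside 10.4% in each direction of the 16473 genes it tested. Among the 8664 genes of high mean edgeR called 1347 higher and 1273 lower. DESeq2 called 3 members higher and 0 lower, beside 6.38% and 5.56% of the 12428 genes with an adjusted p. Among the 8664 genes of high mean DESeq2 called 722 higher and 623 lower. The authors' deposited table holds the same calls as this DESeq2 run, 793 higher and 691 lower, and so is no separate result; over all its rows they come to 5.23%, 2.79% higher and 2.43% lower.

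Values of the 2 groups did not overlap for 8 of the 9 members, with 5 higher and 3 lower in shALKBH5. Over all genes tested 50.6% had groups that did not overlap (25.0% higher), and among the 8664 genes of high mean it was 67.7% (36.0% higher). The median log2 fold change over the 9 members was 0.10, against -0.004 over all genes tested.

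**Figure D1:**
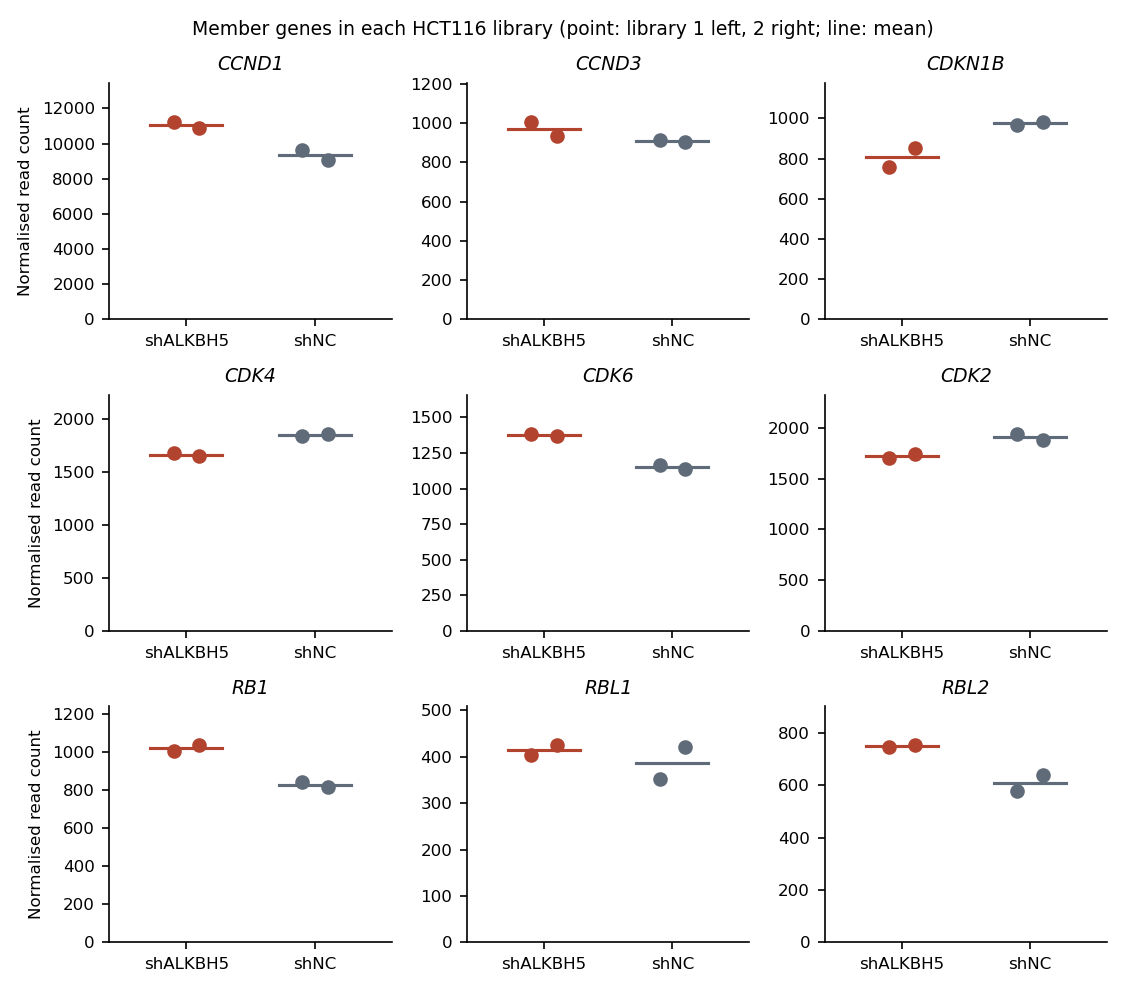
Normalised read count (vertical axes, from 0) of each of the 9 genes in the 2 shALKBH5 libraries and the 2 shNC libraries; points are libraries and lines are group means. CCND1, CCND3, CDK6, RB1 and RBL2 lie higher in both shALKBH5 libraries, CDKN1B, CDK4 and CDK2 lie lower, and only the RBL1 groups overlap.

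**Figure D2:**
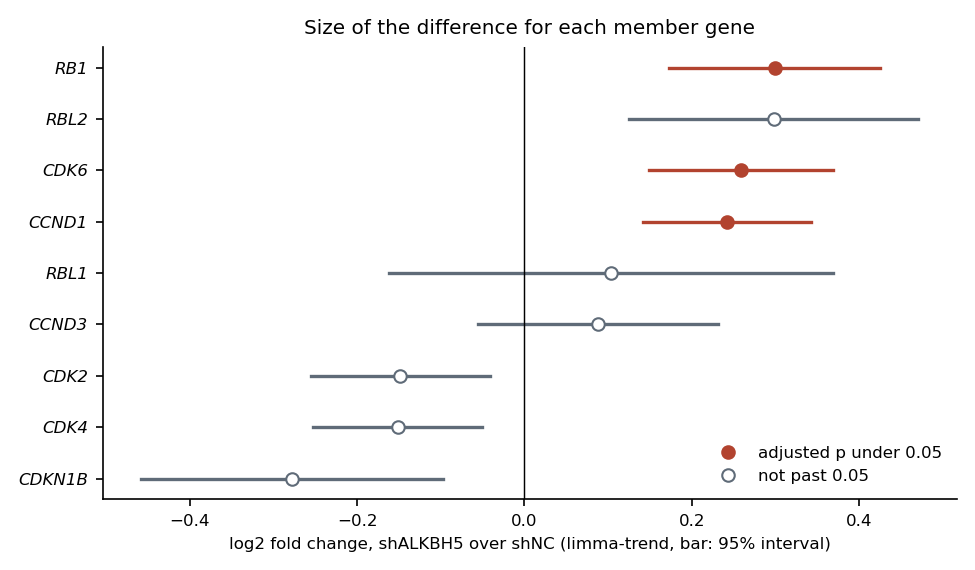
Log2 fold change of shALKBH5 over shNC for each gene (horizontal axis) with its 95% interval from limma-trend. Filled points passed an adjusted p of 0.05. RB1 at 0.30, CDK6 at 0.26 and CCND1 at 0.24 passed, and RBL2 at 0.30 did not.

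CCND1 (ENSG00000110092, GRCh38 chromosome 11, 69641087 to 69654474, plus strand) was the most highly read member. It had 11204 and 10875 normalised counts in the shALKBH5 libraries, against 9619 and 9052 in the shNC libraries. Both shALKBH5 libraries lay above both shNC libraries. The means were 11039 ± 233 in shALKBH5 and 9336 ± 401 in shNC (SD, n = 2 each), which makes a log2 fold change of 0.24 ± 0.0401 (SE, 95% interval 0.14 to 0.34) at a limma-trend adjusted p of 0.0429. The authors' deposited table gives an adjusted p of 1.12e-06 for the same gene. Exons of CCND1 share 497 bases, 10.3% of its exon length, with LTO1 on the opposite strand, which was at 379 and 366 in shALKBH5 and 356 and 330.0 in shNC. The sources used here do not state a stranded count, so reads from such shared bases cannot be told apart.

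CCND3 (ENSG00000112576, chromosome 6, 41934933 to 42050357, minus strand), the D cyclin best known from lymphoid cells, had 1004 and 933 normalised counts in shALKBH5 and 915 and 906 in shNC. The groups lay close together without overlapping. Its log2 fold change was 0.09 ± 0.0572 (SE) with a limma-trend adjusted p of 0.44, and the 95% interval ran from -0.06 to 0.23, so it includes 0 and reaches close to the value of CCND1.

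CDK6 (ENSG00000105810, chromosome 7, 92604921 to 92836594, minus strand) had 1384 and 1371 normalised counts in the shALKBH5 libraries, against 1162 and 1140 in the shNC libraries. The libraries of each group were close together and the groups stood apart. The log2 fold change was 0.26 ± 0.0439 (SE), 95% interval 0.15 to 0.37, with a limma-trend adjusted p of 0.0449 and an edgeR adjusted p of 0.00348.

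CDK4 (ENSG00000135446, chromosome 12, 57747727 to 57756013, minus strand) is the other kinase partner of the D cyclins. It had 1681 and 1645 normalised counts in shALKBH5, against 1837 and 1858 in shNC. Both shALKBH5 libraries lay below both shNC libraries, yet the log2 fold change of -0.15 ± 0.0403 (SE), 95% interval -0.25 to -0.05, did not pass in limma-trend (adjusted p 0.112), while edgeR gave an adjusted p of 0.0364. Of the exon bases of CDK4, 43.2% are shared with TSPAN31 on the opposite strand, a gene read at 204 and 200.2 in shALKBH5 and 185 and 194 in shNC.

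CDK2 (ENSG00000123374, chromosome 12, 55966769 to 55972784, plus strand) is the partner of the E and A cyclins. It had 1700.3 and 1746 normalised counts in shALKBH5, against 1941 and 1879 in shNC, again lower in both shALKBH5 libraries. The log2 fold change was -0.15 ± 0.0427 (SE), 95% interval -0.26 to -0.04, with a limma-trend adjusted p of 0.131 and an edgeR adjusted p of 0.0403. Of the exon bases of CDK2, 14.5% are shared with AC025162.1 on the opposite strand, which has no row. A further gene on the opposite strand, PMEL, shares 2.29% of them. PMEL was at 133 and 134 in shALKBH5, against 216 and 217 in shNC.

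For the kinase gene that rose, the bases before its first listed start site are shown. Matches to the GC box GGGCGG, a site bound by SP1, were searched on both strands and are marked in capitals. The stretch is chr7:92836574-92836823 on GRCh38.p14 (RefSeq), written 5′ to 3′ on the minus strand, on which CDK6 lies.
CDK6: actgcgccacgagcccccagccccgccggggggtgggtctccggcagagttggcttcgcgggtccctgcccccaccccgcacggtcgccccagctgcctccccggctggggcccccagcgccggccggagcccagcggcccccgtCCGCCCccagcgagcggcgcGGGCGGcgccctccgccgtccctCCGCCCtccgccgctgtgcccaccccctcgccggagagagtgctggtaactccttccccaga
The window holds 3 GC boxes and 80% G or C. A further CDK6 start site is listed, and its window (chr7:92833960-92834209) holds 0. Of 35116 windows of the same length, 42.6% hold at least 1 GC box and 24.3% hold 2 or more. The first CDK4 window holds 3 GC boxes as well and the first CCND3 window 5; both of these windows begin inside the gene as GENCODE draws it. CCND1, CCND2 and CDK2 have no entry in the promoter table.

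CDKN1B (ENSG00000111276, chromosome 12, 12715058 to 12722371, plus strand), the inhibitor of CDK2, had 756 and 855 normalised counts in shALKBH5, against 969 and 980 in shNC. Both shALKBH5 libraries were lower, and they differed more from each other (SD 69.9) than the shNC libraries did (SD 7.48). The log2 fold change was -0.28 ± 0.0721 (SE), 95% interval -0.46 to -0.10, with a limma-trend adjusted p of 0.107. With edgeR the adjusted p was 0.00978. Without shALKBH5 library 1 the log2 fold change was -0.19, and without shALKBH5 library 2 it was -0.37, where limma-trend gave an adjusted p of 0.0023. Over all settings its adjusted p, by limma, edgeR or DESeq2, ranged from 0.0023 to 0.367.

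RB1 (ENSG00000139687, chromosome 13, 48303726 to 48599436, plus strand) had 1007 and 1036 normalised counts in the shALKBH5 libraries, against 841 and 819 in the shNC libraries. The groups were well apart, with means of 1022 ± 20.3 in shALKBH5 and 830.1 ± 15.1 in shNC (SD, n = 2 each). The log2 fold change was 0.30 ± 0.0503 (SE), 95% interval 0.17 to 0.43, with a limma-trend adjusted p of 0.0443 and an edgeR adjusted p of 0.00338. None of the genes overlapping RB1 shares an exon base with it in GENCODE release 29.

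RBL2 (ENSG00000103479, chromosome 16, 53433977 to 53491649, plus strand), the pocket protein known for holding E2F4 in resting cells, had 746 and 753 normalised counts in shALKBH5, against 579 and 641 in shNC. Both shALKBH5 libraries lay above both shNC libraries. The log2 fold change of 0.30 ± 0.0689 (SE), 95% interval 0.13 to 0.47, was of the same size as that of RB1, but did not pass in limma-trend (adjusted p 0.084), whereas edgeR gave an adjusted p of 0.0103. The shNC libraries of RBL2 differed more (SD 43.4) than those of RB1 (SD 15.1). AKTIP on the opposite strand shares 8.33% of the exon bases of RBL2 and was at 276 and 290.2 in shALKBH5, against 334 and 324 in shNC.

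RBL1 (ENSG00000080839, chromosome 20, 36996349 to 37095995, minus strand), the pocket protein made in cycling cells, had 403 and 424 normalised counts in shALKBH5 and 351 and 422 in shNC. It was the member with overlapping groups. The log2 fold change was 0.10 ± 0.106 (SE), limma-trend adjusted p 0.642, and the 95% interval from -0.16 to 0.37 includes both no change and the size seen for RB1. Without shNC library 1 it was -0.028, and without shNC library 2 it was 0.24.

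RBL1 is itself known as an E2F target, so the bases before its start site are shown with matches to the E2F site TTTCGCGC or TTTGGCGC, searched on both strands, in capitals. The stretch is chr20:37095998-37096247 on GRCh38.p14 (RefSeq), written 5′ to 3′ on the minus strand.
RBL1: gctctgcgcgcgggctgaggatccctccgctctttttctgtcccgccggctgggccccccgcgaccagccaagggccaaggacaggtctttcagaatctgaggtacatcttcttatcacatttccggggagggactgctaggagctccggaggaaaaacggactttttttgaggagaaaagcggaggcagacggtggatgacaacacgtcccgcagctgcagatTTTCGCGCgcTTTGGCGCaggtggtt
The window holds 2 matches, beginning 26 and 16 bases before the start site and not overlapping. Of the 35116 windows, 0.968% hold at least 1 match and 9 windows, 0.0256%, hold 2 or more. The windows listed for CCND3, CDK4, CDK6, CDKN1B, RB1 and RBL2 hold 0, and the RB1 window lies 172724 bases inside the gene, at an internal start.

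Reading the genes per kilobase of gene length allows their levels to be ordered. CCND1 was by far the highest, at 2286 normalised counts per kb in shALKBH5 and 1933 in shNC, 3.81 times the next gene over the 4 libraries. CDK4 followed at 525 in shALKBH5 and 583 in shNC, then CDK2 at 443 in shALKBH5 and 491 in shNC, and CDKN1B at 286 in shALKBH5 and 347 in shNC. CCND3 at 167 in shALKBH5 and 157 in shNC came next, and its 4 libraries overlapped with those of RB1, at 158 in shALKBH5 and 129 in shNC. CDK6 at 112 in shALKBH5 and 93.9 in shNC overlapped with RBL2 at 102 in shALKBH5 and 83.3 in shNC. RBL1 was lowest, at 69.5 in shALKBH5 and 64.9 in shNC. All other neighbours in the order were separate in all 4 libraries. CDK6 has a long gene model of 12260 bases, most of it the 3′ untranslated region, which is 10219 bases in its principal transcript.

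Within each family the balance between members can be read library by library. Shares and ratios do not depend on how libraries are scaled, while summed levels do. CDK6 made up 17.5% and 17.7% of the summed CDK4 and CDK6 level per kb in the shALKBH5 libraries, against 14.1% and 13.7% in the shNC libraries. Its ratio to CDK4 was 0.213 and 0.215 in shALKBH5 and 0.164 and 0.159 in shNC, a difference of 0.41 on the log2 scale. The 2 groups did not overlap, although 2 libraries against 2 cannot go below a two-sided p of 0.333 in an exact permutation test. The summed level of CDK4 and CDK6 was 644 and 631 per kb in shALKBH5, against 675 and 680 in shNC. The sum per kb was thus lower while the CDK6 share was higher. The direction of this sum depends on the gene lengths used, 12260 bases for CDK6 and 3168 for CDK4. Summed without division by length, the counts of CDK4 and CDK6 were not lower in shALKBH5.

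CCND1 made up 93.1% and 93.3% of the level of the 2 D cyclin genes measured in shALKBH5, against 92.7% and 92.3% in shNC. The cyclin D1 transcript therefore dominated in every library, and the summed level was 2493 and 2412 per kb in shALKBH5, against 2149 and 2030 in shNC. CCND1 stood at 8.63 and 7.41 times the level of CDKN1B in shALKBH5, against 5.78 and 5.38 times in shNC. The ratio of CDK2 to CDKN1B was closer between groups, at 1.62 and 1.48 in shALKBH5 and 1.45 and 1.38 in shNC.

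The summed pocket protein level was 326 and 335 per kb in shALKBH5, against 268 and 285 in shNC. RB1 made up 47.9% and 48.0% of it in shALKBH5 and 48.6% and 44.5% in shNC, and RBL2 31.3% and 30.7% in shALKBH5 and 29.5% and 30.7% in shNC. The RB1 shares of the groups overlapped. Those of RBL2 nearly met. RBL1 made up 20.8% and 21.3% in shALKBH5, against 22.0% and 24.8% in shNC, lower in both shALKBH5 libraries.

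**Figure D3:**
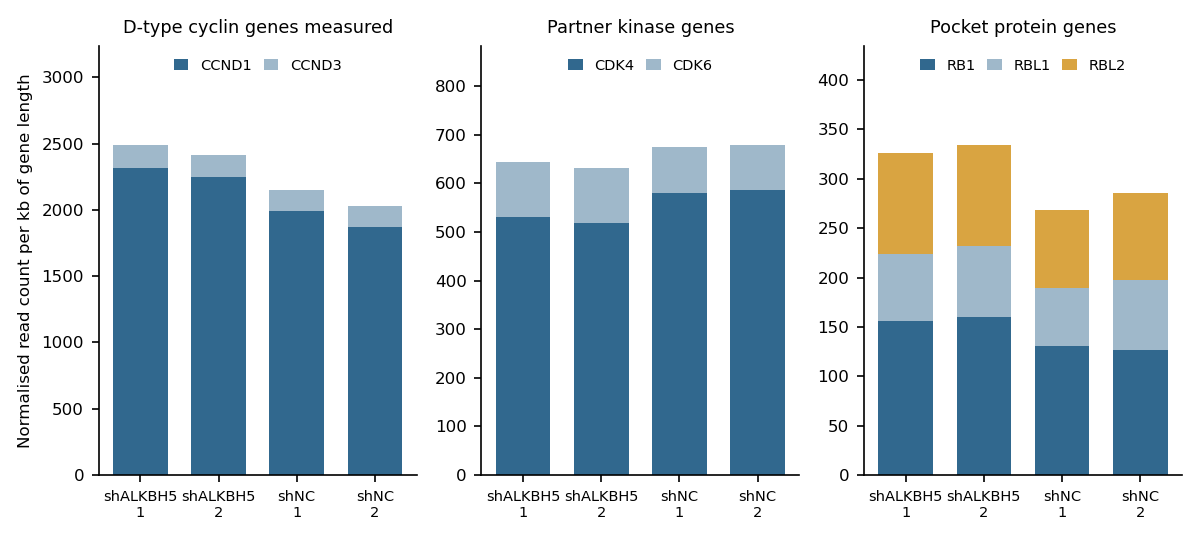
Normalised read count per kb of gene length (vertical axes, from 0) in each library, stacked for the D cyclin genes, the partner kinase genes and the pocket protein genes. The CDK6 part is larger in both shALKBH5 libraries (17.5% and 17.7%) than in both shNC libraries (14.1% and 13.7%), and the pocket protein sum is higher in shALKBH5.

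The 3 genes that rose were also read for GGACT, the DNA spelling of the core of the sequence at which m6A is most often placed. In the principal transcript of GENCODE release 29, CCND1 holds 4 such sites, 0.929 per kb, CDK6 holds 6, 0.517 per kb, and RB1 holds 4, 0.835 per kb. Over the 15452 coding genes tested the median was 0.96 per kb, so these 3 genes lay below it. CCND1 lay close to it, with 48.1% of genes lower than CCND1. Members that did not pass the test lay on both sides of the median. CCND3 at 1.44, CDK2 at 1.31 and RBL2 at 1.02 per kb lay above. CDKN1B at 0.376, CDK4 at 0.482 and RBL1 at 0.528 per kb lay below. The site nearest to the end of the stop codon is shown for each of the 3, with GGACT in capitals. It was picked because m6A is known to be dense near stop codons. The sites of CCND1, CDK6 and RB1 begin 165, 275 and 268 bases before that end. All 3 lie in coding sequence, and m6A itself was not measured.
CCND1: agtgtgacccGGACTgcctccgggc
CDK6: ggacgtgattGGACTcccaggagaa
RB1: gaatcattcgGGACTtctgagaagt

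The other genes of the pathway were read in 8 lists, 111 genes tested in all. Of these, 3 rose, 8 fell and 100 did not pass, with a median log2 fold change of -0.05. Over all genes tested, limma-trend called 1.98% higher and 1.88% lower. Among the 8664 genes of high mean it called 5.26% higher and 4.97% lower. With edgeR, 1347 of these 8664 genes were called higher and 1273 lower. The counts of each list are to be read beside these shares. In bulk RNA, fewer cells in a phase of the cycle and less RNA per cell cannot be told apart. Of 7 other CDK inhibitors, 1 rose and 2 fell, with a median of -0.26. CDKN1A (p21), the p53-induced inhibitor, rose to 10657 and 10493 normalised counts in shALKBH5, against 8505 and 8758 in shNC, 0.29 higher on the log2 scale (limma-trend adjusted p 0.017). CDKN2D, an INK4 inhibitor of CDK4 and CDK6, fell to 364 and 347 in shALKBH5, against 467 and 521 in shNC. Its limma-trend adjusted p of 0.0477 lay close to the threshold. CDKN2A, which encodes p16 and ARF from overlapping exons whose reads are not separated here, fell by 0.37 on the log2 scale, to 1178 and 1255 in shALKBH5, against 1527 and 1622 in shNC.

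Of 10 E2F and DP factors, 1 fell, 0 rose and 9 did not pass, with a median of -0.09. E2F8, a repressive E2F, fell to 364 and 407 normalised counts in shALKBH5, against 636 and 706 in shNC, or -0.80 ± 0.0894 (SE) on the log2 scale (limma-trend adjusted p 0.0195). edgeR called 0 of this list higher and 2 lower, where it called 10.4% of the 16473 genes it tested in each direction. Of 8 MuvB, MYB and FOXM1 genes, 1 fell, 0 rose and 7 did not pass. LIN52, a MuvB subunit, fell by 0.54 on the log2 scale, to 207 and 202 in shALKBH5, against 282 and 313 in shNC. Its limma-trend adjusted p of 0.0484 lay close to the threshold. All 8 had a log2 fold change below 0, from -0.54 to -0.05. The 95% intervals of MYBL2, RBBP4, MYBL1 and LIN37 included 0. LIN37 had only 18 to 35 reads per library, with an interval from -1.16 to 0.96. The edgeR test called 4 of the 8 lower and 0 higher, beside 10.4% of the genes it tested in each direction.

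Of 33 E2F targets of S phase entry, 1 fell, 0 rose and 32 did not pass, with a median of -0.07. RRM2, a subunit of ribonucleotide reductase, fell to 3218 and 3440 in shALKBH5, against 4663 and 4303 in shNC (limma-trend adjusted p 0.0252). At an unadjusted p under 0.05, 11 targets were lower and 2 higher. For all genes of high mean it was 19.0% lower and 21.5% higher. The edgeR test called 8 targets lower and 0 higher, and 10.4% of the genes it tested in each direction. Among the 8664 genes of high mean it called 1273 lower and 1347 higher. All 8 proliferation markers, among them MKI67 and TOP2A, did not pass in limma-trend. The smallest p in that list were those of PLK1, a mitotic kinase, with a log2 fold change of 0.17, and CCNB1, cyclin B1, with 0.19, both called higher by edgeR.

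Of 11 partner cyclins and kinases, 0 rose and 0 fell in limma-trend and in edgeR. Without adjustment, 1 was higher and 1 lower at p under 0.05. The shares were 10.7% and 10.7% of all genes tested, and 21.5% and 19.0% of genes of high mean. CDC25A, the phosphatase that activates CDK2, had a log2 fold change of -0.20 and CDK7, a kinase that activates CDKs, of 0.21. Of 19 genes linked to the turnover of cyclins or CDKN1B, 0 passed in limma-trend. At an unadjusted p under 0.05, 4 were higher and 3 lower, close to the shares of all genes of high mean (21.5% and 19.0%). The smallest p were those of FZR1, an activator of the anaphase-promoting complex, with a log2 fold change of -0.26, and CUL1, the scaffold of the SKP2 ligase, with 0.20. edgeR called 2 of the 19 higher and 3 lower, beside 10.4% of the genes it tested in each direction.

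Of 15 transcription factors known to act on the D cyclin or CDKN1B genes, 2 rose, 3 fell and 10 did not pass. Their median was 0.07. By comparison, limma-trend called 1.98% of all genes tested higher and 1.88% lower. Among genes of high mean it was 5.26% and 4.97%. MYC rose to 6256 and 6021 normalised counts in shALKBH5, against 3789 and 4057 in shNC, and ETS2 to 1761 and 1666 in shALKBH5, against 1232 and 1157 in shNC. EGR1 fell to 5914 and 6055 in shALKBH5, against 10073 and 9779 in shNC, and JUN, an AP-1 subunit, to 388 and 348 in shALKBH5, against 632 and 718 in shNC. FOSL1, another AP-1 subunit and the remaining gene of the 5, had a log2 fold change of -0.30 and is named after its value was seen. The CCND1 rise of 0.24 was smaller than the changes of these 5 genes.

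**Figure D4:**
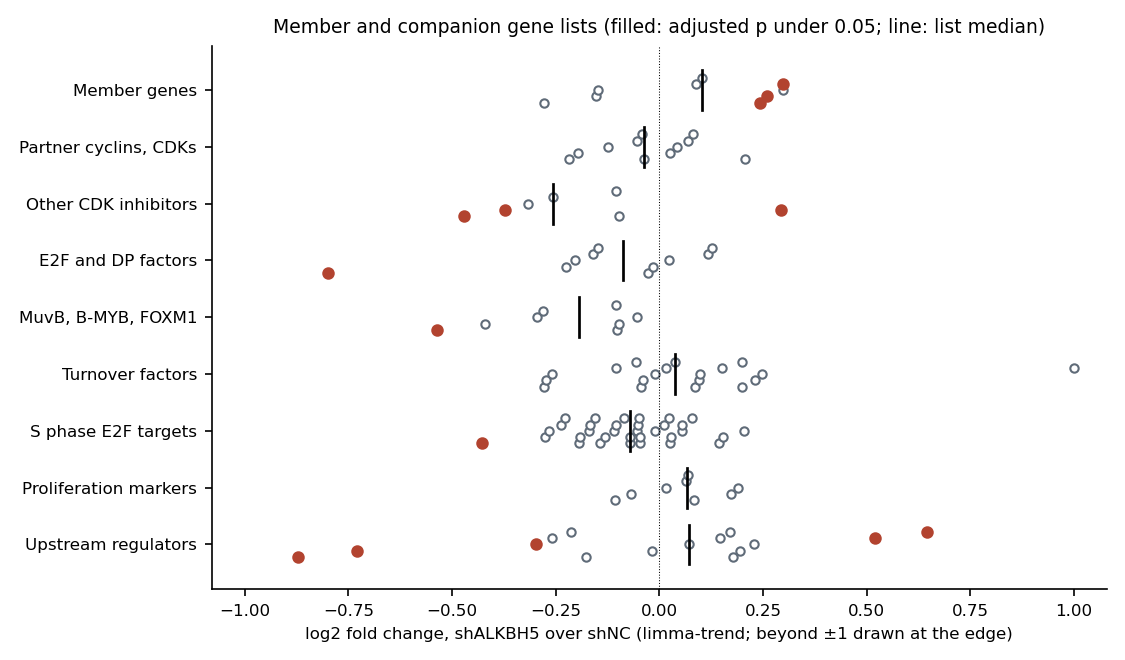
Log2 fold change of shALKBH5 over shNC (horizontal axis) for the member genes and the genes of the 8 companion lists; points are genes, filled where the adjusted p was under 0.05, and vertical lines are list medians, with an open point among the turnover factors that lies beyond the axis drawn at its edge. Filled points lie on both sides of 0 among CDK inhibitors and upstream regulators. All 8 MuvB, MYB and FOXM1 genes lie below 0, with 1 of them filled.

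CCND1 had the smallest p of the members, and its profile over the 4 libraries was compared with 11238 other genes whose mean reached 100. The 3 nearest by Euclidean distance of centred log2(value + 1) were USP33 at 0.0119, ARHGAP12 at 0.0135 and ASB13 at 0.018. USP33, a deubiquitinase, had 1100.4 and 1078 normalised counts in shALKBH5, against 955 and 895 in shNC. None of the 3 passed, with limma-trend adjusted p of 0.0847, 0.0663 and 0.0932.

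The calls of CCND1, CDK6 and RB1 lie close to the threshold. With library totals made equal, all 3 had a limma-trend adjusted p above 0.05 (0.0673, 0.0634 and 0.0617), and 37.4% of called genes were then higher, against 51.3% as the values stand. This change of scale moved the log2 fold changes of well-read genes such as these by -0.033. Without shNC library 1 or 2, limma-trend called 0 of all genes, although 3859 or 4201 had p under 0.05 before adjustment, and the log2 fold change of CCND1 was 0.29 or 0.20. edgeR on the same 3 libraries called CCND1, CDK6 and RB1 higher each time, and likewise when either shALKBH5 library was left out.

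**Figure D5:**
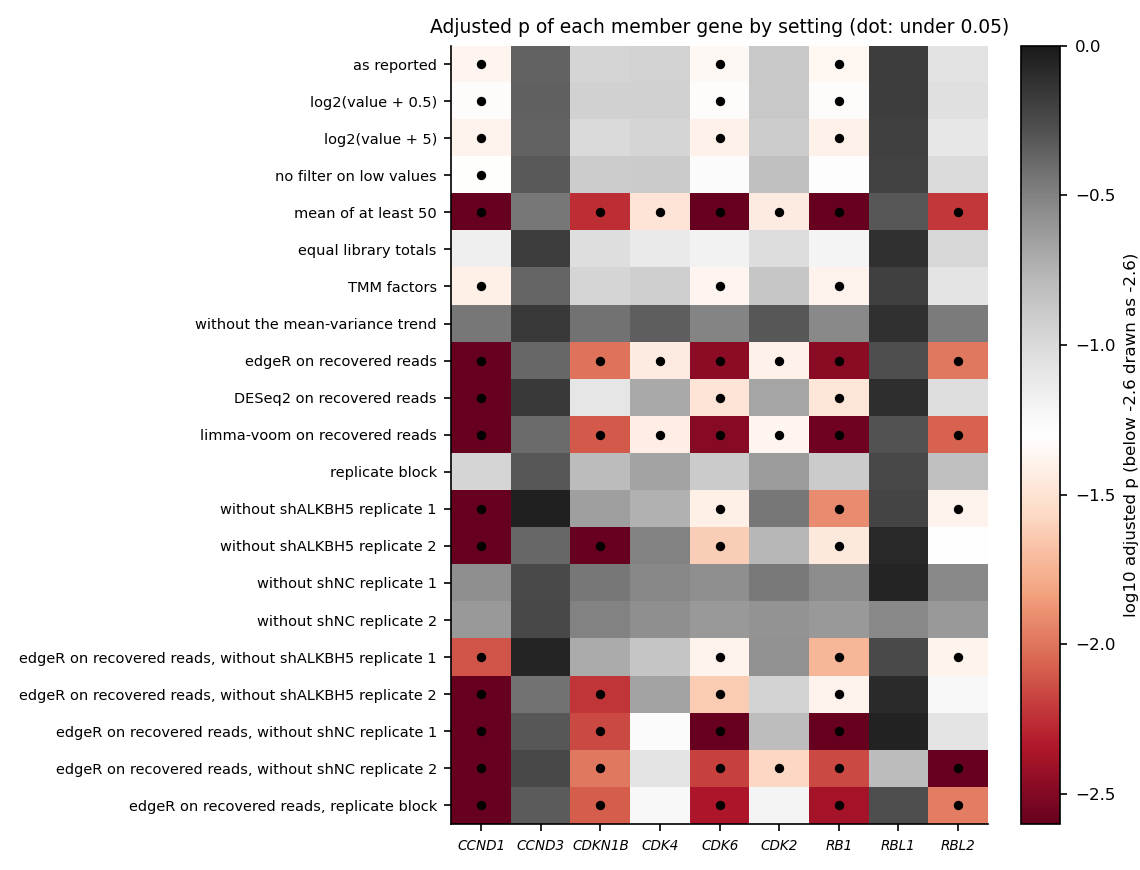
Adjusted p of each member gene (columns) under each setting (lines), on a log10 colour scale, with a dot where it was under 0.05. CCND1, CDK6 and RB1 carry a dot under most settings but not with equal library totals, without either shNC library in limma-trend, with a replicate block in limma-trend or without the mean-variance trend. CDK6 and RB1 carry none with no filter either. CCND3 and RBL1 carry none.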

How the data were processed

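The deposited values are a signal: the authors scaled each library's gene reads by 1 constant, which the step between low values reveals. Every value was a whole multiple of 1 step per library, so whole reads were recovered for 100% of values within 0.001 reads. The authors' log2 fold change, p-value and adjusted p-value stand in the same table, per the file headers. No source used here names an aligner, counter or build. Positions of 28377 of 28391 genes, and of all 9 members, equal those of GENCODE release 29 on GRCh38, and the deposited gene lengths of the members equal the summed exon lengths there. Within each group the pair of libraries was further apart than counting error (chi-square per gene of 2.28 for shALKBH5 and 3.00 for shNC, 1 expected by counting alone).

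The test was limma-trend (limma 3.58.1) on log2(value + 1), two-sided, over genes that reached a value of 1 in 2 or more of the 4 libraries. It used Benjamini-Hochberg adjustment over all genes and a threshold of 0.05. Its prior had 3.48 degrees of freedom beside 2 of the data. Fold changes on this scale understate those of low genes. Alternatives on the recovered reads were edgeR 4.0.16 (quasi-likelihood, TMM), DESeq2 1.42.0 and limma-voom. Each was tested on simulated counts with seeded changes.

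The members and lists were chosen with earlier results of these data known. Named genes are all members, ALKBH5, up to 4 passing genes with the smallest p per list (2 where none passed), and the 3 genes most like the member with the smallest p. Promoters cover 250 bases before each RefSeq start. A principal transcript is the APPRIS one, then the one with a CCDS entry, then the longest coding one.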

Additional observations from a re-analysis of the deposited data

How the results depend on the processing

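All members except RBL1 kept the sign of their log2 fold change under every setting tried; RBL1 was -0.028 in limma-trend and -0.029 in edgeR without shNC replicate 1. CCND1, CDK6 and RB1 kept their call in 15, 14 and 14 of the alternatives, and lost it in 5, 6 and 6. RBL2 and CDKN1B gained a call in 7 and 8. Member genes called higher numbered 1 with no filter on low values and 0 with equal library totals, with the replicate block and without the mean-variance trend. Members called lower numbered 3 in edgeR, in limma-voom and over genes whose mean reached 50, and 1 in edgeR with the replicate block.

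Over all genes, the counts higher and lower were 1712 and 1716 in edgeR, 1709 and 1684 in limma-voom, 793 and 691 in DESeq2, 1789 and 1698 over genes whose mean reached 50, 323 and 541 with equal totals, and 0 and 0 without the trend, where 3903 genes had an unadjusted p under 0.05. The replicate block, on numbers that the labels do not tie to a shared day or culture (correlation of deviations -0.027), left 56 and 55 in limma-trend and 1623 and 1650 in edgeR. Companion genes called higher and lower numbered 10 and 26 in edgeR, 12 and 28 in limma-voom, 6 and 13 in DESeq2, 15 and 27 over genes whose mean reached 50, 1 and 2 with the replicate block (10 and 25 in edgeR), and 0 and 0 without the trend; lower ones were 5 with log2(value + 0.5) and 5 with no filter. The cause of these moves was not tested.

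With 1 library left out in limma-trend, genes called higher ranged from 0 to 1129 and lower from 0 to 1152, members higher from 0 to 4 and lower from 0 to 1, and companions higher from 0 to 6 and lower from 0 to 17. RBL1 ranged from -0.028 to 0.24. In edgeR, genes higher and lower were 978 and 989 without shALKBH5 replicate 1, 1137 and 1091 without shALKBH5 replicate 2, 1535 and 1481 without shNC replicate 1, and 1778 and 1655 without shNC replicate 2. Members called lower there numbered 0, 1, 1 and 2 in that order, companions higher 6, 4, 13 and 11, and companions lower 14, 17, 24 and 24. A group left with 1 library is assumed to vary like the other. The edgeR settings without a library or with the block were chosen after seeing the data.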
